A study of Mus musculus with 10 samples.

Results

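Described here are 10 genes of the Nrf2 antioxidant response and the metallothioneins, out of 49671 gene IDs in the deposited table, in mouse epidermal cells that express a tumour-driving form of Smoothened. They were taken by symbol: the transcription factor gene Nfe2l2, its target genes Nqo1, Gclc, Gclm, Hmox1, Txnrd1, Srxn1 and Gsr, and the metallothionein genes Mt1 and Mt2. Each symbol had 1 row. Cells carrying SmoM2-YFP, an active Smoothened fused to a yellow fluorescent protein, were sorted from skin epidermis, and their polyA RNA was sequenced to examine the part that Survivin, the product of Birc5, plays in basal cell carcinoma. There were 5 groups of 2 libraries.

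All 5 groups carried SmoM2 at the Rosa locus. In 3 groups it was switched on by Krt14-CREER, active in basal keratinocytes: Krt14-CREER/Rosa-SmoM2 at 6 weeks and at 8 weeks (Krt14 at 6 or 8 weeks below), and the same genotype with Survivin LOF, a loss of function, at 6 weeks (LOF). In the remaining 2 it was switched on by Inv-CREER, driven by the promoter of involucrin, a gene of differentiating keratinocytes: Inv-CREER/Rosa-SmoM2 at 8 weeks (Inv), and at the same time Inv-CREER/Rosa-SmoM2/Krt14rtTA/Survivin-GOF, a gain of function (GOF). The weeks stand beside TAM in the titles, read here as time from tamoxifen and not as age. The labels do not list Krt14rtTA for the Inv libraries, so Krt14rtTA and the gain of Survivin cannot be told apart, and the descriptions call both Inv libraries pools without saying of what.

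Nrf2, the protein of Nfe2l2, is held low by Keap1, which hands it to a ubiquitin ligase, and it accumulates when oxidants or electrophiles modify Keap1. It then binds antioxidant response elements (AREs) together with a small Maf protein and drives genes for glutathione synthesis, thiol reduction, quinone reduction and haem breakdown. Metallothioneins are small cysteine-rich proteins that bind zinc and copper. Their genes are driven by the zinc sensor MTF-1 through metal response elements (MREs), and by glucocorticoids and oxidative stress.

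The promoters of Mt1, Mt2 and Srxn1 are shown because these genes gave the widest differences below and because their windows hold the elements named above. Promoter windows, 250 bases before to 50 after the start, were found in RefSeq (GRCm38.p6) for 7 of the 10 genes. Capitals mark matches on either strand to the ARE core TGACNNNGC, to TGANTCAGC (an AP-1-like site followed by GC, which shares TGACTCAGC with the ARE core) or to the MRE core TGCACNC or TGCGCNC.
Mt1, chr8:94178839-94179138, plus strand: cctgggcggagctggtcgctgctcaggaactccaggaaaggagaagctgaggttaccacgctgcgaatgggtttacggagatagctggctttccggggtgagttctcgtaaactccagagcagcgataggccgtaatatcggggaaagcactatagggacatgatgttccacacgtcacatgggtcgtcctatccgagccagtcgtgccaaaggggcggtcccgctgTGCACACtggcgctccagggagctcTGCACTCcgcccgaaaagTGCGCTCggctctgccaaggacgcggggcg
Mt2, chr8:94172368-94172667, plus strand: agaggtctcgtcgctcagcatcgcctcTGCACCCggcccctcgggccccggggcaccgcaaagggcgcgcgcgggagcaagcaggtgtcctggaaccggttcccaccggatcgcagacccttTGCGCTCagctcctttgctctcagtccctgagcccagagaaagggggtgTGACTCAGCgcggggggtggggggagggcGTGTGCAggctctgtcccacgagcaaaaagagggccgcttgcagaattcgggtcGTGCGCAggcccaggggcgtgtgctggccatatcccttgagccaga
Srxn1, chr2:152105274-152105573, plus strand: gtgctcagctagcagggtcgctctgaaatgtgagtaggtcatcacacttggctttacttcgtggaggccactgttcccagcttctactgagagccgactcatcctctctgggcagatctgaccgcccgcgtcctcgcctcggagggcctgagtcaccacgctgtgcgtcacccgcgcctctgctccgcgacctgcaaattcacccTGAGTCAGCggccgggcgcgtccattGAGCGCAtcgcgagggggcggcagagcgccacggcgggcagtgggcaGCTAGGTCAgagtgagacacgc

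The Mt1 window held 3 matches to the MRE core and that of Mt2 held 4, against at least 3 in 1.97% and at least 4 in 0.518% of 32817 mouse promoter windows of the same length. The Gclm window also held 3, of which 1 overlaps its ARE core. The Mt2 window also held TGACTCAGC, which matches both other patterns, starting 79 bases before the start. In the Srxn1 window, TGAGTCAGC lay 45 bases before the start, an ARE core on the minus strand lay 29 bases after it, and 1 MRE core was present. The pattern TGANTCAGC occurs in 1.19% of windows, the ARE core in 12.4% and the MRE core in 25.7%. Single ARE cores were also found in the windows of Nfe2l2 and Gclm and in 1 of 3 windows of Txnrd1. The Nqo1 window held no match to these patterns. A match is a description of the sequence and not a mapped binding site.

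Between 7693153 and 8870758 reads stood behind each library, and a value that 3 reads would give lay between 6.76 and 7.80 normalized counts. All values below are normalized counts unless they are said to be log2 changes, log2 changes are given ± their standard error, and every group has n = 2. Birc5, the targeted gene, was at 961 and 1103 in Krt14 at 6 weeks, 382 and 429 in LOF, 1005 and 926 in Krt14 at 8 weeks, 237 and 265 in Inv, and 7277 and 16384 in GOF. The libraries with altered Survivin also stood apart in Xist, the X-inactivation transcript of female cells, which was at 30024 and 59594 in LOF and at 7589 and 56185 in GOF, against 51 to 194 in the remaining 6. The Y-linked gene Ddx3y was read in all 10 libraries. Altered Survivin and the mix of female and male cells thus cannot be told apart in the LOF and GOF comparisons. The 7 keratinocyte markers (Krt5, Krt14, Krt15, Trp63, Itga6, Itgb4, Cdh1) were present in every library, with a summed level of 166772 to 323832.

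Per kilobase of exon, the metallothioneins were the most abundant of the 10 genes, with means over the groups of 4197 normalized counts per kb for Mt2 and 2625 for Mt1. Gclc (512), Nfe2l2 (450), Gsr (249.1), Gclm (230) and Txnrd1 (224) followed, then Srxn1 (133) and Nqo1 (81.8), and Hmox1 was lowest at 34.2 per kb. Exon lengths were those of all annotated transcripts joined, 588 bases for Mt2 and 1246 for Mt1, so the order of these neighbours depends on which transcripts are made. Hmox1 rested on 11 to 38 reads per library and Nqo1 on 32 to 67, while each other gene had at least 44 reads in every library.

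**Figure D1:**
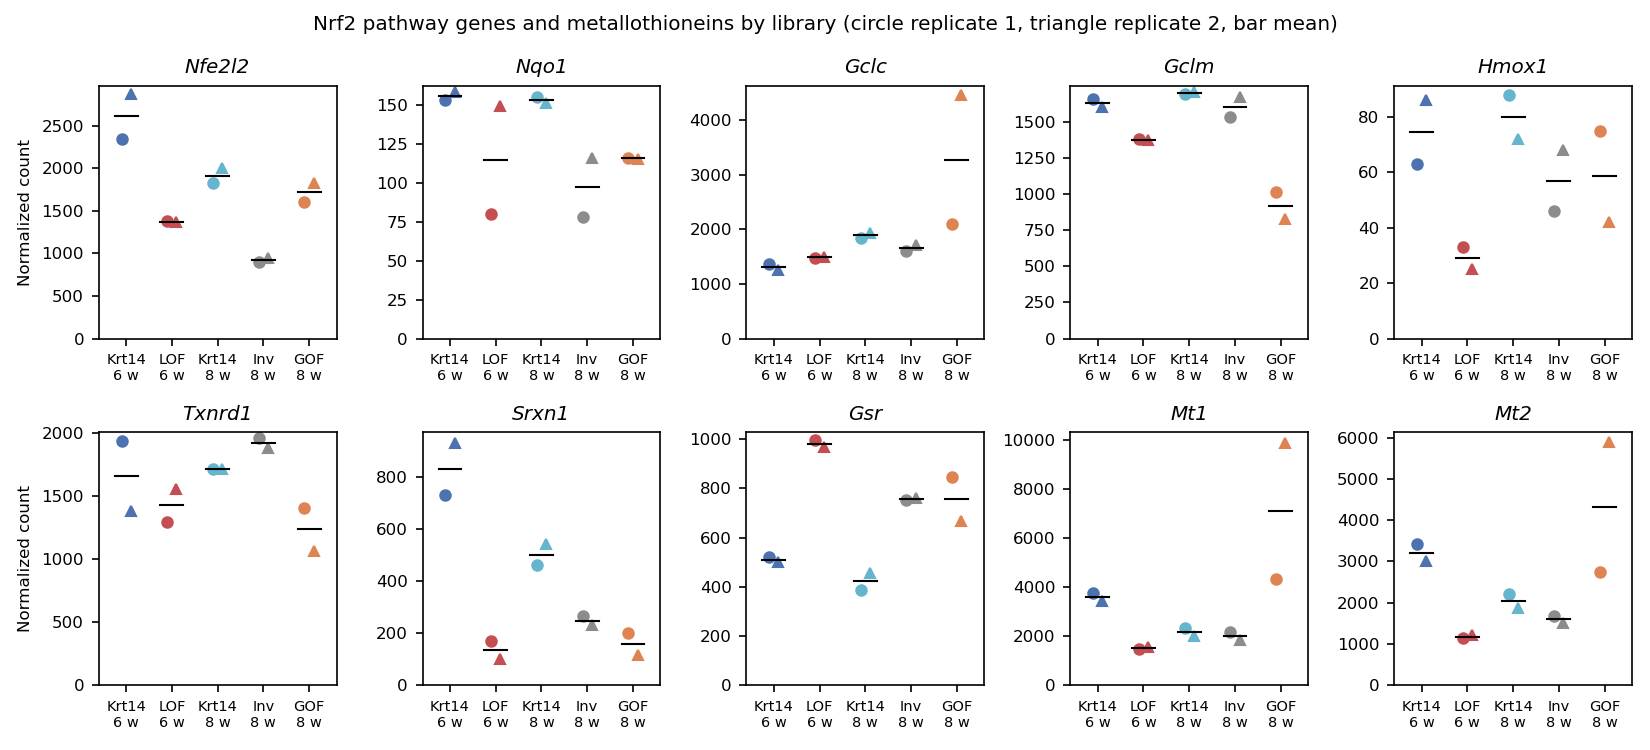
Normalized count of each of the 10 genes (y axis, linear from 0) in the 2 libraries of each of the 5 groups (x axis), with replicate 1 as a circle, replicate 2 as a triangle and the group mean as a bar. Srxn1 is high in both Krt14 groups and low in LOF and GOF, and for Mt1, Mt2 and Gclc replicate 2 of GOF lies far above every other library.

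With Survivin loss, compared with Krt14 cells at 6 weeks, Nfe2l2, Srxn1, Hmox1, Mt1 and Mt2 fell and Gsr rose, while Gclc, Gclm, Txnrd1 and Nqo1 did not pass the test. The question is what changes in SmoM2 cells when Survivin is reduced. Of the 10 members 5 were lower and 1 was higher, with a median log2 change of -0.71. Of all 21995 tested genes 30.9% were called (adjusted p under 0.05), 19.5% higher and 11.4% lower, with a median log2 change of 0.16. After median-of-ratios rescaling that median was 0.02 and the share of called genes that were higher went from 63.1% to 49.0%.

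Nfe2l2 (ENSMUSG00000015839, chromosome 2, 75675513 to 75704641, minus strand) was at 2351 and 2870 in Krt14 at 6 weeks and at 1376 and 1369 in LOF. Both LOF libraries lay below both controls (log2 change -0.92 ± 0.12, adjusted p = 0.000279). Srxn1 (ENSMUSG00000032802, chromosome 2, 152105516 to 152111376), which encodes sulfiredoxin, the enzyme that restores over-oxidised peroxiredoxins, was at 731 and 928 in the controls and 169 and 100 in LOF. This was the widest difference among the members, 6.29-fold (log2 change -2.65 ± 0.29, adjusted p = 8.17e-05). Hmox1, which encodes the inducible haem oxygenase that breaks haem down to biliverdin, was at 63 and 86 against 33 and 25 (log2 change -1.33 ± 0.38, adjusted p = 0.0223). In reads these were 26 and 33 against 13 and 11, and leaving out replicate 2 of either the control (-1.11) or the LOF group (-1.13) ended the Hmox1 call. It also ended when these groups alone were fitted (adjusted p = 0.0577).

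The metallothioneins fell together. Mt1 (ENSMUSG00000031765, chromosome 8, 94179082 to 94180327, plus strand) was at 3748 and 3430 in the controls and 1462 and 1543 in LOF (2.39-fold lower, log2 change -1.25 ± 0.28, adjusted p = 0.00625). Its neighbour Mt2 (ENSMUSG00000031762, chromosome 8, 94172664 to 94173568, plus strand), whose end lies 5513 bases before Mt1, was at 3423 and 3004 against 1138 and 1209 (2.73-fold lower, log2 change -1.45 ± 0.26, adjusted p = 0.00203). For both genes the LOF libraries were close to each other and held the lowest values of all 10 libraries.

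Gsr, the glutathione reductase gene (chromosome 8, 33652523 to 33698163), went the other way, from 519 and 501 to 997 and 968 (log2 change 0.94 ± 0.14, adjusted p = 0.000703). The LOF libraries held the highest Gsr values of the series. The catalytic subunit gene of glutamate-cysteine ligase, Gclc, was at 1374 and 1250 against 1472 and 1502 (log2 change 0.18, adjusted p = 0.629), and the modifier subunit gene Gclm at 1658 and 1602 against 1378 and 1376 (-0.24, adjusted p = 0.141). Gclm passed after median-of-ratios rescaling (-0.38, adjusted p = 0.0203). Txnrd1, the cytosolic thioredoxin reductase gene, was at 1935 and 1377 against 1291 and 1556, so that the groups overlapped (-0.20, adjusted p = 0.413). Nqo1, which encodes a quinone reductase widely used as a readout of Nrf2, was at 153 and 158 against 80 and 149 (-0.51 ± 0.30, adjusted p = 0.239), and the LOF libraries differed 1.86-fold from each other. The Nqo1 change was -0.061 without replicate 1 of LOF and -0.95 without replicate 2.

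Other genes of the pathway, 74 in 8 lists of which 71 were tested, moved both ways with Survivin loss: 15 rose, 13 fell and 43 did not pass (median log2 change -0.05). Thioredoxins and peroxiredoxins fell in 5 of 10 cases and rose in 1, with Txn1, the cytosolic thioredoxin, at 1527 and 1042 against 3015 and 3350 (log2 change -1.33 ± 0.16) and the peroxidase Prdx1 at 5370 and 4985 against 7342 and 7846 (-0.55 ± 0.09). Of 18 tested genes of glutathione synthesis, use and transport, 4 rose and 3 fell. The transferase Gsta3 was at 92 and 167 against 5 and 6, and the microsomal transferase Mgst1 at 1281 and 1935 against 280 and 290 (2.46 ± 0.22), whereas the peroxidase Gpx2 was at 28 and 32 against 789 and 1333 (-5.05). Mgst1 is also a sebocyte marker.

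Catalase (Cat) was at 5164 and 6485 against 2458 and 2433 (1.24 ± 0.12) and the superoxide dismutase Sod1 rose by 0.78 ± 0.10, 2 of the 3 tested genes of that list. In the NADPH list 1 of 6 rose, the malic enzyme Me1 (1.83 ± 0.22), and 1 fell, the transaldolase Taldo1 (-0.65 ± 0.12). Of 8 tested haem and iron genes 3 were called higher and 1 lower, with the last enzyme of haem synthesis, Fech, rising by 0.96 and the biliverdin reductase Blvrb by 1.13. Of the detoxification genes 2 of 8 rose and 1 fell: the aldehyde dehydrogenase Aldh3a1 rose by 1.80 ± 0.23 and the reductase Ptgr1 fell by 0.87. Of the zinc handling genes 1 of 8 rose and 2 fell: the epidermal metallothionein Mt4 was at 119 and 55 against 10 and 19, the opposite direction to Mt1 and Mt2, and the zinc importer Slc39a14 was at 697 and 596 against 1297 and 1085 (-0.88 ± 0.15). Among the regulators, only Btrc passed, a ligase subunit that can act on Nrf2 (0.79 ± 0.18), and Keap1 was among the 9 of 10 that did not.

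Markers of other cells moved in the same comparison, and their part in the result was not tested. The summed 6 melanocyte markers ranged from 874 to 920 in the controls and from 2857 to 3000 in LOF, with 5 of 6 called higher, and the 6 sebocyte markers from 7688 to 8551 and from 19714 to 33464, with 4 of 6 higher. Most of the sebocyte sum was Scd1 in every library. The 6 fibroblast markers summed to between 1300 and 2673 in the controls and between 18817 and 19188 in LOF, with 2 of 6 called higher, and nearly all of it was Dcn. The other called marker was Col1a2, at 137 and 19 against 647 and 1006 (3.94 ± 0.66), while Col1a1 was at 218 and 75 against 117 and 93. The 6 leukocyte markers summed to between 234 and 291 and between 580 and 919, with Cd74 (3.04 ± 0.38) and Cd207 (3.85 ± 0.90) called higher among the 5 tested. Of the 5 endothelial markers, whose sums were 142 to 200 against 121 in both LOF libraries, Tek was called higher and Pecam1 lower. The 6 macrophage markers, of interest because macrophages make Hmox1, summed to 154 to 190 and 237 to 305, with Adgre1, Mrc1 and C1qa at 0 in both groups. Only 2 of them, Csf1r and Cd68, were tested, and 0 were called. The 13 genes of dissociation stress, which can also induce Hmox1 and metallothioneins, summed to between 35236 and 35840 in the controls and between 22056 and 26367 in LOF, with 8 lower and 3 higher. In bulk samples fewer cells of a type and less RNA per cell cannot be told apart.

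With log2 Xist as a covariate, 3 members passed in LOF, all lower: Mt1 (-4.04 ± 0.66), Mt2 (-4.01 ± 0.65) and Gclc (-2.48 ± 0.54), and Srxn1 was at -0.41 ± 0.89. At an unadjusted p under 0.05 (limma) there were 5 members, against 20.2% of genes. Xist nearly marks the groups with altered Survivin, and the standard errors of the LOF comparison were 3.77 times as large in that fit.

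**Figure D2:**
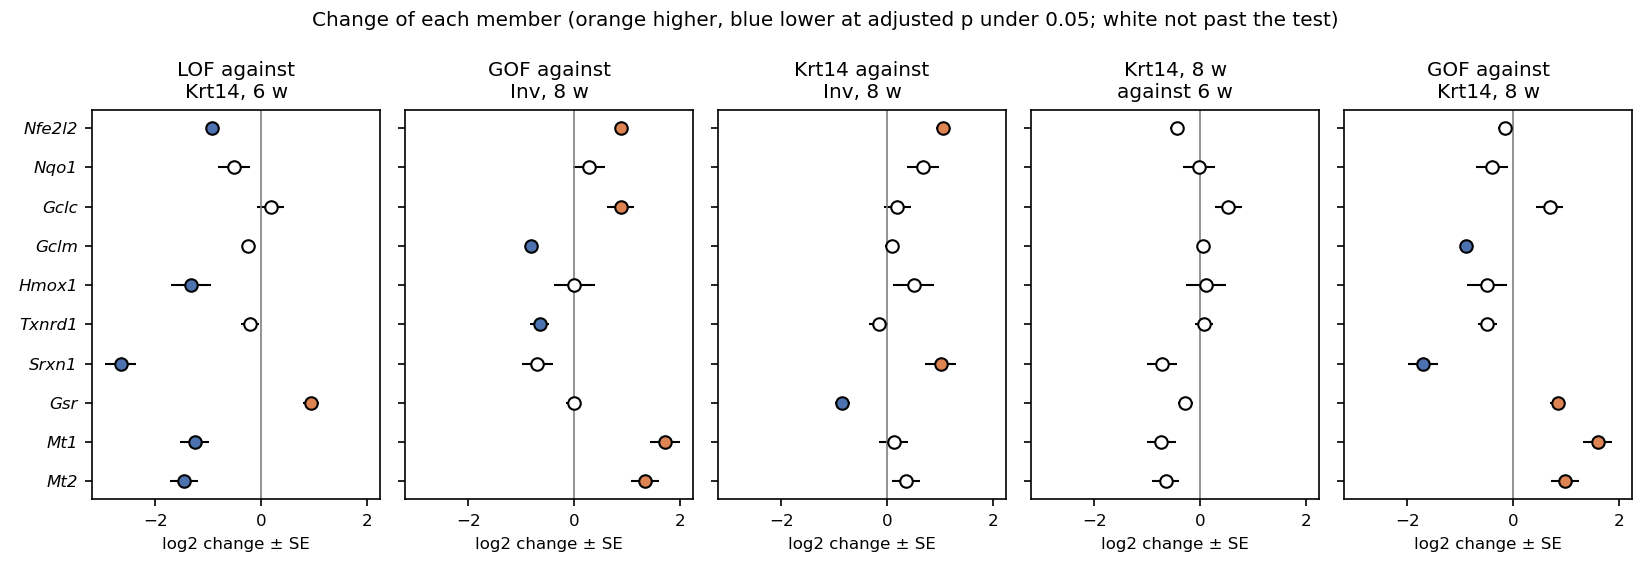
Log2 change with its standard error (x axis) of each of the 10 genes (y axis) in the 5 comparisons, from 1 fit over all groups; orange points were called higher, blue points lower and white points did not pass. In LOF 5 genes lie to the left and Gsr to the right, whereas in GOF Mt1, Mt2, Nfe2l2 and Gclc lie to the right and Gclm and Txnrd1 to the left.

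With Survivin gain, compared with Inv cells at 8 weeks, Mt1, Mt2, Nfe2l2 and Gclc rose while Gclm and Txnrd1 fell. Srxn1, Gsr, Hmox1 and Nqo1 did not pass. Of the 10 members 4 were higher and 2 lower, with a median log2 change of 0.14. The background was 15.3% of all tested genes called, 6.87% higher and 8.4% lower, with a median of -0.01. These calls rest on the spread shared by the 5 groups: with only Inv and GOF fitted (limma), 258 genes and 0 members passed, with 5 members and 21.4% of genes at an unadjusted p under 0.05.

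Mt1 was at 2155 and 1827 in Inv and at 4321 and 9890 in GOF (3.29-fold higher, log2 change 1.72 ± 0.28, adjusted p = 0.0027). Mt2 was at 1673 and 1509 against 2734 and 5894 (2.53-fold higher, log2 change 1.34 ± 0.26, adjusted p = 0.00728). Both GOF libraries lay above both Inv libraries, and the GOF libraries differed 2.29-fold from each other in Mt1 and 2.16-fold in Mt2. Without replicate 2 of GOF the Mt1 change was 1.12 and the Mt2 change 0.78, both still called, and the Mt2 call was lost without either Inv library (1.41 and 1.26).

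Nfe2l2 was at 897 and 951 in Inv, the lowest values of the series, and at 1609 and 1828 in GOF (log2 change 0.89 ± 0.12, adjusted p = 0.00101). The 2 subunit genes of glutamate-cysteine ligase, which carries out the first and limiting step of glutathione synthesis, moved in opposite directions. Gclc (ENSMUSG00000032350, chromosome 9, 77754535 to 77794485) was at 1609 and 1710 in Inv and at 2095 and 4469 in GOF (0.88 ± 0.25, adjusted p = 0.0387). Gclm (ENSMUSG00000028124, chromosome 3, 122245557 to 122270732) was at 1534 and 1674 against 1015 and 825 (-0.81 ± 0.12, adjusted p = 0.00143). The Gclc change was 1.43 without replicate 1 of GOF and 0.34 without replicate 2, where its call was lost, as it was without either Inv library (0.84 and 0.93) and without the filter on low values (adjusted p = 0.127). The Gclm call held without each library in turn.

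Per kilobase of exon, the Gclc to Gclm ratio was 3.45 and 9.05 in the GOF libraries and between 1.30 and 1.90 in the other 8. The Mt1 to Mt2 ratio per kilobase was 0.746 and 0.792 in GOF and between 0.493 and 0.608 elsewhere. Over the 10 libraries log2 values of Mt1 and Mt2 correlated at r = 0.97 and those of Gclc and Gclm at r = -0.78. These are descriptions over libraries that share groups, and GOF replicate 2 lies far from the others in both.

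**Figure D3:**
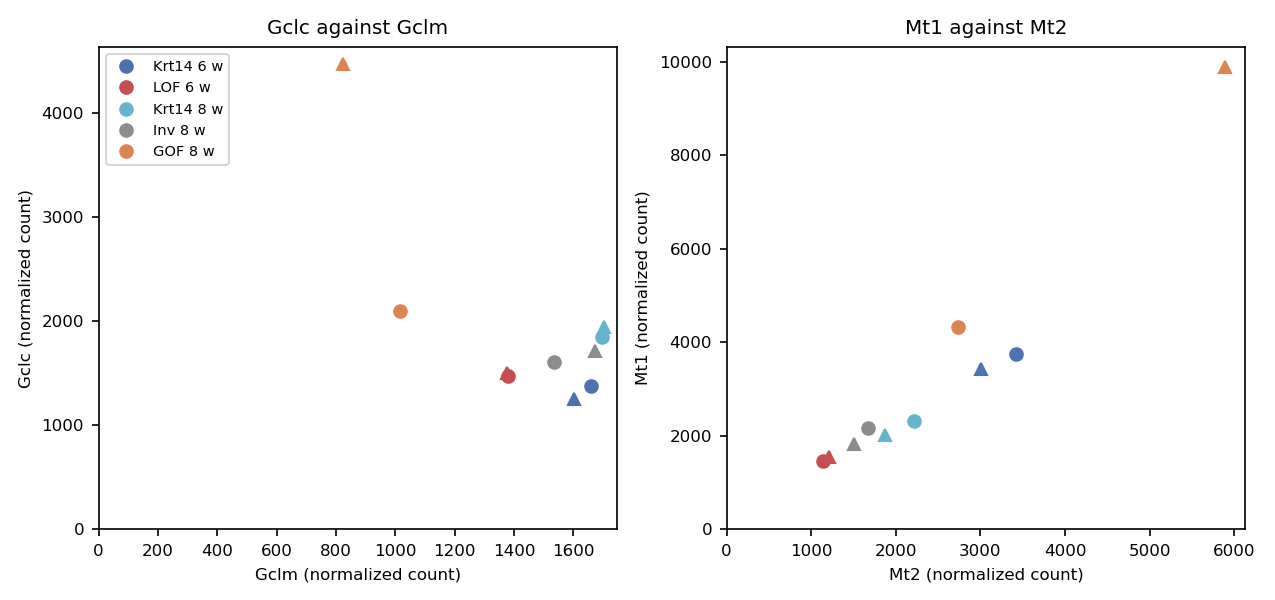
Normalized count of Gclc against Gclm (left) and of Mt1 against Mt2 (right) in each library, coloured by group, with replicate 1 as a circle and replicate 2 as a triangle; both axes are linear from 0. The GOF libraries have the highest Gclc with the lowest Gclm. Mt1 and Mt2 broadly rise together, up to 9890 and 5894 in GOF replicate 2, with more Mt1 relative to Mt2 in the GOF libraries than in the others.

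Txnrd1 (chromosome 10, 82833951 to 82897712) was at 1957 and 1875 in Inv and at 1405 and 1061 in GOF (log2 change -0.65 ± 0.17, adjusted p = 0.0295), a call lost without replicate 2 of GOF (-0.45) and without either Inv library (-0.62 and -0.68) and without the filter (adjusted p = 0.0911). Srxn1 was at 264 and 231 against 198 and 117. The GOF values lay below those of Inv but did not pass (-0.69 ± 0.29, adjusted p = 0.132), and the change ran from -1.07 without replicate 1 of GOF, where it passed (adjusted p = 0.0191), to -0.32 without replicate 2. Gsr was at 754 and 761 against 847 and 669 (log2 change -0.01 ± 0.14), Hmox1 at 46 and 68 against 75 and 42, and Nqo1 at 78 and 116 against 116 and 115. In these 3 genes the groups overlapped.

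The GOF libraries also differed from each other outside the members. Replicate 2, with the higher Mt1, Mt2 and Gclc, had 2.25 times the Birc5 of replicate 1, a Ddx3y of 970 against 3328 and a Dcn of 14512 against 37402. Of the other fibroblast markers Col1a2 (97 against 114) and Pdgfra (8 against 13) were also lower in replicate 2. Col1a1 (89 against 85), Col3a1 (47 against 13) and Lum (50 against 29) were higher. The keratinocyte markers summed to 166772 in replicate 2, the lowest of all 10 libraries, against 237552 in replicate 1. The 5 endothelial markers summed to 327 in replicate 1 and 1160 in replicate 2, against 241 to 290 in Inv, with Kdr at 41 and 294, Emcn at 49 and 242 and Cdh5 at 15 and 221, and 0 of 5 were called against Inv. The summed dissociation stress genes were at 29074 and 42111 in GOF against 19158 to 23121 in Inv, with 8 of 13 called higher, and the sebocyte markers at 36176 and 52607 against 125209 to 130164, with 5 of 6 lower. Macrophage markers summed to 273 and 308 against 175 to 210, with Adgre1 and C1qb at 0 in both groups and 0 of the 2 tested called. Keratinocyte markers were higher in 2 of 7 cases, Itgb4 (0.77 ± 0.11) and Cdh1 (0.39 ± 0.09). Of 5 tested leukocyte markers 1 was lower, Trac, at 27 and 3 against 66 and 86, and 0 of 6 melanocyte and 0 of 6 fibroblast markers were called. The part of these in the result was not tested. With log2 Xist as a covariate 0 members passed (limma; 2 of 10 at an unadjusted p under 0.05, against 10.1% of genes), Mt1 being at -0.39 ± 0.51 and Nfe2l2 at 0.62 ± 0.35.

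Of the 71 other pathway genes 7 rose, 19 fell and 45 did not pass with Survivin gain (median -0.11). Genes of NADPH supply fell in 5 of 6 cases, with Taldo1 at 729 and 682 against 1591 and 1640 (log2 change -1.19 ± 0.12) and the phosphogluconate dehydrogenase Pgd at 1095 and 882 against 2035 and 1908. Genes of glutathione synthesis, use and transport fell in 6 of 18 cases with 0 rises, including the transferase Gsta4 at 121 and 104 against 428 and 459 (-1.97 ± 0.24) and Mgst1 (-1.70). Thioredoxins and peroxiredoxins fell in 4 of 10 cases and rose in 1: Prdx1 was at 3523 and 3107 against 5001 and 5194 (-0.62), and the peroxidase Prdx2 at 1479 and 1295 against 2685 and 2466 (-0.89). The 1 rise, named after its values were seen, was Txnip, an inhibitor of thioredoxin, at 19169 and 73510 against 6749 and 6666.

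The regulators of Nrf2 rose in 4 of 10 cases with 0 falls. Maff, a small Maf partner, was at 227 and 575 against 92 and 57 (2.30 ± 0.40), and Sqstm1, the autophagy receptor p62 that binds Keap1, at 1604 and 2132 against 1081 and 1089 (0.77 ± 0.14). The other rises, named after their values were seen, were Keap1, which holds Nrf2 low, and Bach1. Keap1 was at 1116 and 1243 against 854 and 827 (0.49 ± 0.11), and Bach1 at 2131 and 4610 against 1593 and 1522 (1.01 ± 0.27). Catalase fell, from 5616 and 6176 to 2205 and 1953 (-1.50 ± 0.12), as the 1 called gene of 3 in its list. Of the detoxification genes 2 of 8 fell, the carbonyl reductase Cbr1 (-0.76) and Ptgr1 (-0.92). Of the haem and iron genes 1 of 8 rose, the ferritin heavy chain Fth1 (0.50, adjusted p = 0.0385). Of the zinc handling genes 1 of 8 rose, the zinc importer Slc39a6 (0.51), and 1 fell, Slc39a10, at 3665 and 1670 against 7657 and 8806 (-1.73 ± 0.27).

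**Figure D4:**
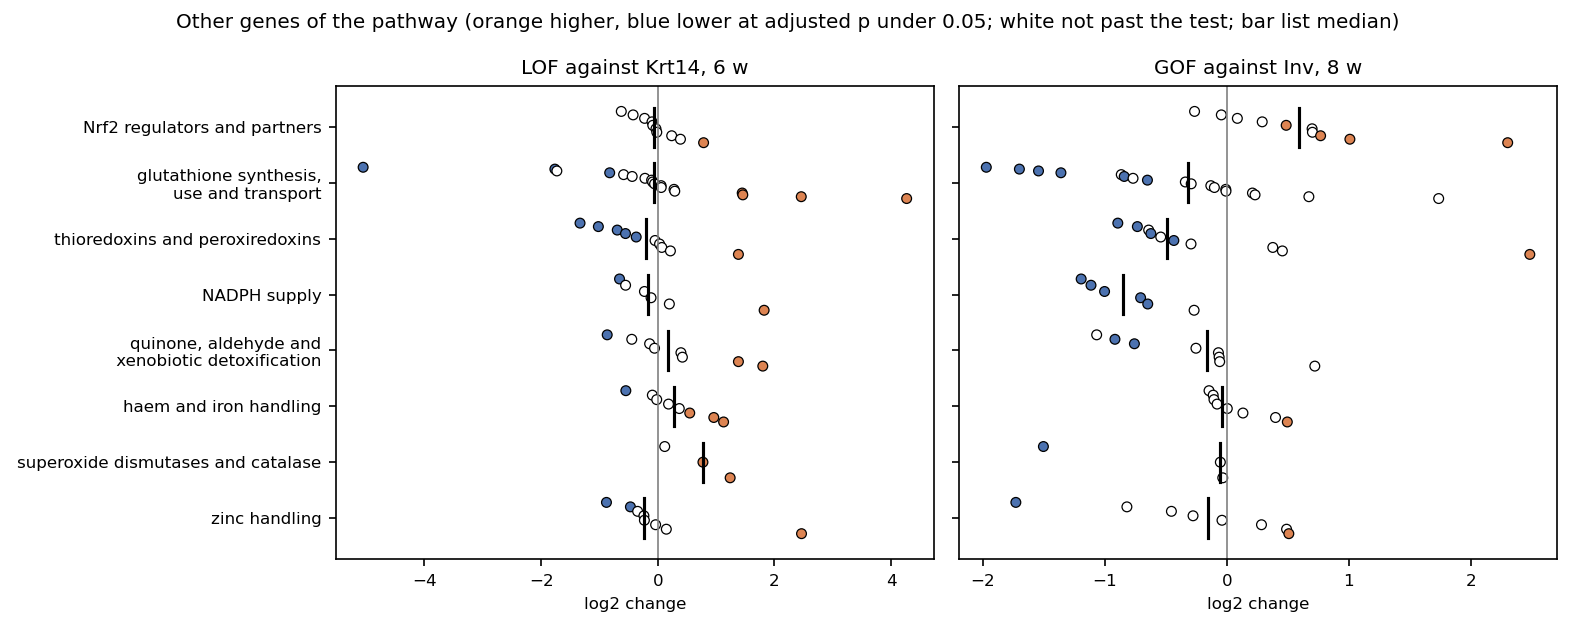
Log2 change (x axis, scaled separately in each panel) of the 71 tested pathway genes in 8 lists (y axis) with Survivin loss (left) and Survivin gain (right); orange points were called higher, blue lower, white did not pass, and the bar is the list median. The NADPH list lies to the left of 0 in GOF with 5 of 6 genes called lower, whereas in LOF 1 was called in each direction.

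Krt14 and Inv cells at 8 weeks differed in 3 members. The question is how SmoM2 cells differ by the compartment in which SmoM2 was switched on. Nfe2l2 and Srxn1 were higher and Gsr was lower in Krt14, against a background of 19.6% of genes called, 8.18% higher and 11.4% lower (median of all genes -0.10, and -0.01 after median-of-ratios rescaling, where the share of calls that were higher went from 41.8% to 51.5%). Nfe2l2 was at 1826 and 2000 against 897 and 951 (log2 change 1.05 ± 0.12, adjusted p = 0.00017). Srxn1 was at 459 and 541 against 264 and 231 (1.01 ± 0.29, adjusted p = 0.0305), a call lost without any 1 of the 4 libraries (0.89 to 1.13) or without the filter (adjusted p = 0.0933). Gsr was at 387 and 457 against 754 and 761 (-0.85 ± 0.14, adjusted p = 0.00206).

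The remaining 7 members did not pass. Mt1 was at 2316 and 2018 against 2155 and 1827, with overlapping groups, and Mt2 at 2217 and 1877 against 1673 and 1509 (0.36, adjusted p = 0.389). Gclc was at 1849 and 1941 and Gclm at 1696 and 1704 in Krt14, with log2 changes of 0.19 and 0.09. Among the other pathway genes 10 were higher, 18 lower and 43 did not pass. The 3 tested genes of the superoxide dismutase and catalase list were all lower in Krt14, Cat by most (-1.44 ± 0.12), and Me1 was lower by 2.26 in its log2 value, at 2071 and 1706 against 8598 and 9430. Slc40a1, the iron exporter, was at 1421 and 1250 against 537 and 475, and Txn1 was at 2302 and 2334 against 1195 and 1233 (0.93 ± 0.16). The sebocyte markers summed to 22361 to 24708 in Krt14 against 125209 to 130164 in Inv, with 4 of 6 lower. Most of that sum was Scd1 (22984 and 20745 against 113521 and 118185), and Awat2 (54 and 31 against 46 and 41) and Plin5 were not called. The dissociation stress genes summed to 68014 to 68409 against 19158 to 23121, with 11 of 13 higher. Keratinocyte markers were higher in 5 of 7 cases, and lower were 3 of 6 melanocyte, 2 of 6 fibroblast (Dcn and Col1a2), 2 of 5 endothelial and 1 of 5 tested leukocyte markers. The part of these in the result was not tested.

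Between 6 and 8 weeks in Krt14 cells 0 of the 10 members passed (limma), against a background of 4.88% of genes, 4.02% higher and 0.855% lower. At an unadjusted p under 0.05 there were 4 members, all lower at 8 weeks, against 22% of all tested genes, and limma-voom on recovered reads also called 0. With log2 Xist as a covariate (limma) 4 members passed, with 5 members and 25.8% of genes at an unadjusted p under 0.05. Nfe2l2 (-0.45 ± 0.11, adjusted p = 0.0357), Mt1 (-0.76 ± 0.17, adjusted p = 0.0206) and Mt2 (-0.68 ± 0.16, adjusted p = 0.0293) were lower in that fit, and Gclc was higher (0.51 ± 0.14, adjusted p = 0.0434). Nfe2l2 was at 1826 and 2000 at 8 weeks against 2351 and 2870 at 6 weeks (log2 change -0.44 ± 0.12, adjusted p = 0.0648), and it passed after median-of-ratios rescaling (-0.59, adjusted p = 0.0371). That rescaling took the median of all genes from 0.14 to 0.00028 and the share of called genes that were higher from 82.5% to 53.7%. Mt1 was at 2316 and 2018 against 3748 and 3430 (-0.73 ± 0.28, adjusted p = 0.157), Mt2 at 2217 and 1877 against 3423 and 3004 (-0.65, adjusted p = 0.179) and Srxn1 at 459 and 541 against 731 and 928 (-0.72, adjusted p = 0.173). The spread behind these tests includes the GOF libraries, which differed 2.29-fold in Mt1 and 2.16-fold in Mt2. With only the 2 Krt14 groups fitted (limma) 0 members passed, with 5 members and 25.4% of genes at an unadjusted p under 0.05. The groups did not overlap in 7 of the 10 members, Nfe2l2, Mt1, Mt2 and Srxn1 included, nor in 56.5% of all tested genes, 18.2% being lower at 8 weeks. Dissociation stress genes summed to 68014 to 68409 at 8 weeks against 35236 to 35840 at 6 weeks, with 5 of 13 called higher, and sebocyte markers to 22361 to 24708 against 7688 to 8551, with 4 of 6 higher. Of the melanocyte markers 3 of 6 were higher, and of the keratinocyte markers 1 of 7 was lower. Their part in these values was not tested. Of the 71 other pathway genes 4 rose and 1 fell, the latter Fth1, at 4486 and 5116 against 7003 and 7681 (-0.61 ± 0.14).

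GOF and Krt14 cells at 8 weeks differed in 5 members: Mt1, Mt2 and Gsr were higher in GOF, and Srxn1 and Gclm were lower. These groups differ in the CREER driver, Survivin gain, Krt14rtTA and Xist at once, which cannot be told apart here. Gsr was at 847 and 669 in GOF, 387 and 457 in Krt14, and 754 and 761 in Inv without the gain. The background was 27.7% of genes called, 15.2% higher and 12.5% lower. The log2 change was 1.60 for Mt1 (± 0.28, adjusted p = 0.00187), 0.98 for Mt2 (± 0.26, adjusted p = 0.018) and 0.84 for Gsr (± 0.14, adjusted p = 0.00167). It was -1.70 for Srxn1 (± 0.29, adjusted p = 0.00153) and -0.89 for Gclm (± 0.12, adjusted p = 0.000323). Without replicate 2 of GOF the change was 0.999 for Mt1 and 0.42 for Mt2, and without replicate 1 that of Mt2 was 1.53. The Mt2 call was lost without either Krt14 library (1.10 and 0.86) and without the filter (adjusted p = 0.0769), and with Xist as a covariate 0 members passed (3 of 10 at an unadjusted p under 0.05, against 14.6% of genes). Nfe2l2 overlapped between these groups (-0.16 ± 0.12). Of the dissociation stress genes 8 of 13 were lower in GOF, with sums of 29074 and 42111 against 68014 to 68409, and of the keratinocyte markers 3 of 7 were lower. Higher were 3 of 5 endothelial markers (sums of 327 and 1160 against 174 to 215), 2 of 6 melanocyte markers and 1 of 6 fibroblast markers, Dcn (3.63 ± 0.38). Of the other fibroblast markers Col1a2 and Lum were higher and Col1a1, Col3a1 and Pdgfra lower, none of them called. Of the sebocyte markers 2 of 6 were higher and 1 lower, and 1 of 5 tested leukocyte markers moved each way. The part of these in the result was not tested. Gpx2 was at 20 and 29 in GOF against 775 and 743, and Mt4 at 719 and 518 against 33 and 36. Of the 71 other pathway genes 17 were higher, 19 lower and 35 did not pass. The GOF libraries are shared with the comparison against Inv, and the Krt14 libraries at 8 weeks with the 2 comparisons before this one, so these are not independent of each other.

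Across the 5 groups, Nfe2l2 was highest in Krt14 at 6 weeks, then Krt14 at 8 weeks, GOF, LOF and Inv, and only the neighbours Krt14 at 8 weeks and GOF overlapped. Srxn1 ran from Krt14 at 6 weeks through Krt14 at 8 weeks, Inv and GOF to LOF, with overlap of GOF and LOF only. Gsr ran from LOF through GOF, Inv and Krt14 at 6 weeks to Krt14 at 8 weeks, with overlap of GOF and Inv only. Mt1 ran from GOF through Krt14 at 6 weeks, Krt14 at 8 weeks and Inv to LOF, where Krt14 at 8 weeks and Inv overlapped; Mt2 had the same order, with overlap of GOF and Krt14 at 6 weeks. Hmox1 separated only LOF from the group next to it. Across the 10 libraries Nfe2l2 and its target Srxn1 correlated at r = 0.60, Nfe2l2 and Nqo1 at 0.70, Nfe2l2 and Gclm at -0.00050 and Nfe2l2 and Gsr at -0.62, given as descriptions over libraries that share groups.

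Among 12036 genes with a mean of at least 50 and no library at 0, genes with Gm or Rik names left out, the 3 whose log2 values followed those of Mt1 most closely over the 10 libraries were Herpud1 (r = 0.99, 466 to 2717), Hbs1l (r = 0.97, 1187 to 2215) and RP23-98C9.5 (r = 0.97, 1096 to 5624). Herpud1, a gene of the endoplasmic reticulum stress response, starts 206110 bases after the end of Mt1 on chromosome 8. For Nqo1 they were Appbp2 (r = 0.91), Rab18 (r = 0.88) and Gnai3 (r = 0.87), none of which varied as widely as Mt1 did. These are the highest of 12036 correlations for each gene, over 10 libraries that share groups, and are given as descriptions. Nqo1 rested on 32 to 67 reads per library, and Mt1 was far highest in GOF replicate 2, at 9890.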

How the data were processed

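PolyA RNA of sorted cells was sequenced after Ovation Solo library preparation, per the labels' protocols. The submitters' processing notes name STAR, HTSeq and the build GRCm38 (mm10). Not given in the sources used here are their versions, the gene annotation and whether counting used strand. The values deposited by the authors are a normalized score: whole numbers whose columns sum to between 20011195 and 20014054. Below 20000, between 99.3% and 99.9% of a library's values were exact multiples of 1 step (2.25 to 2.60) after rounding up, which gave the recovered reads. Floors of 3 reads cover counting error only; whether PCR copies were removed is not stated in the labels used here.

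The 21995 genes that reached 10 in 2 or more libraries were analysed as log2(value + 1), which understates changes of low genes, in 1 limma 3.58.1 model of all 5 groups (R 4.3.3, functions lmFit and eBayes with trend), two-sided, with 5 residual degrees of freedom. P-values were adjusted by Benjamini-Hochberg over all tested genes and called at 0.05. An exact permutation test of 2 libraries against 2 cannot go below p = 0.333. Nothing in the labels says that libraries came from separate animals, so p-values measure the spread between libraries. That spread was shared by all 5 groups, and replicates agreed least in GOF (correlation of log2 values 0.957, against 0.971 to 0.978 in the others). The wide GOF spread of Mt1, Mt2 and Gclc thus also enters their standard errors in comparisons without GOF.

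Members and lists were chosen with earlier results of these data known. Named pathway genes were at most the 2 called genes with the smallest p per list in the LOF and GOF comparisons and 1 in the others, with a mean of at least 50; a gene named in 1 comparison may be given in another. Gene positions are from GENCODE M21 on GRCm38, which matched 49326 of 49671 gene IDs. Alternatives covered the pseudocount, filter, scaling, samples fitted, a replicate block, Xist as a covariate, limma-voom on recovered reads and leaving out each library. Same-numbered replicates did not deviate together (correlations from -0.054 to 0.041 over 10 pairs of groups).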

Additional observations from a re-analysis of the deposited data

How the results depend on the processing

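Of 700 member changes recomputed under the alternatives, 618 kept their direction and side of the threshold. With the sign kept, 37 lost their call and 15 gained one. The other 30 changed sign, and some of these also lost or gained a call, which the 37 and 15 do not include. Restricting the fit to the 2 groups compared left 258 called genes in GOF against Inv, with 0 members, 2660 in GOF against Krt14 with 3 members, and 8 in Krt14 at 8 against 6 weeks; fewer samples then set the spread. With the Xist covariate the counts of called genes were 959 (LOF), 44 (GOF against Inv), 1795 (Krt14 at 8 against 6 weeks) and 203 (GOF against Krt14), and called members 3, 0, 4 and 0. In Krt14 against Inv 5 members were called with that covariate, with 6 members and 35% of genes at an unadjusted p under 0.05 (limma). Signs that turned with the Xist covariate were, in LOF, Gclc -2.48, Gclm 0.46, Hmox1 1.59 and Txnrd1 0.22. In GOF against Inv they were Nqo1 -0.044, Gclc -1.14, Srxn1 1.01, Gsr 0.42, Mt1 -0.39 and Mt2 -0.60, and in GOF against Krt14 Gclc -1.65, Hmox1 2.07, Srxn1 0.27, Mt1 -0.85 and Mt2 -1.27. Xist is high in every LOF and GOF library and low elsewhere, and the LOF and GOF comparisons had larger standard errors in that fit.

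In Krt14 at 8 against 6 weeks 536 genes were called without a filter, 485 after quantile normalization and 701 with limma-voom. Median-of-ratios rescaling gave 1 member there (Nfe2l2), as did the replicate block (-0.44, adjusted p = 0.0476); the numbers do not pair the samples. The block moved no other member count. Rescaling by ratios turned Gsr in GOF against Inv to 0.0091 and, in Krt14 over time, Gclm to -0.086, Hmox1 to -0.034 and Txnrd1 to -0.078. Quantile normalization gave Hmox1 -0.0017 and Gsr 0.043 in GOF against Inv and Hmox1 -0.27 in Krt14 over time. Leaving out each library gave 3759 (without replicate 2 of Krt14) to 5239 called genes in LOF, and 3824 without replicate 2 of LOF. In GOF against Inv it gave 913 and 1127 without replicates 2 and 1 of Inv, and 2178 and 6198 without replicates 2 and 1 of GOF. The ranges were 1897 to 2253 in Krt14 against Inv, 77 (without replicate 2 at 8 weeks) to 829 in Krt14 over time, where 133 and 210 were called without replicate 1 at 8 and replicate 2 at 6 weeks, and 3308 to 7293 in GOF against Krt14, with 3308 and 3434 without replicates 1 and 2 of Krt14. Called members ranged from 3 (without either Inv library) to 7 in GOF against Inv and from 0 to 1 (Nfe2l2, without replicate 1 at 6 weeks) in Krt14 over time. Ranges that crossed 0 were Txnrd1 in LOF (-0.45 to 0.042), Nqo1 (-0.0062 to 0.56), Hmox1 (-0.41 to 0.42) and Gsr (-0.18 to 0.16) in GOF against Inv, and Hmox1 (-0.11 to 0.33) and Txnrd1 (-0.18 to 0.31) in Krt14 over time; none of these was called. Where a cause is not given it was not tested. Depth limits Hmox1 and Nqo1, at 11 to 67 reads per library.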
